A study of Homo sapiens with 8 samples.

Results

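The genes described here encode the death ligand TRAIL (TNFSF10), its death receptors TNFRSF10A and TNFRSF10B, the death receptor FAS, the proteases CASP1, CASP4 and CASP8, and CFLAR, the cellular inhibitor of caspase-8. They were chosen by name and are 8 of the 18132 genes that have a probe set of their own on the array. Every probe set that the platform annotation assigns to them was read, which gave 42 probe sets of a single gene and 1 shared between CASP1 and its neighbour CARD16, out of 49395 in all. Of the 42 single-gene probe sets, 34 reached a log2 intensity of 6 on at least 1 array: 3 of 3 for TNFSF10, 1 of 1 for TNFRSF10A, 3 of 3 for TNFRSF10B, 2 of 2 for FAS, 4 of 9 for CASP1, 6 of 7 for CASP4, 7 of 8 for CASP8 and 8 of 9 for CFLAR. A gene's value below is that of its brightest single-gene probe set, and by that value all 8 genes were among the 11529 that were compared.

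The RNA came from KBM7, a cell line of chronic myeloid leukaemia that carries most chromosomes in a single copy, so that 1 gene-trap insertion is enough to disable a gene. Each sample was read on 1 Affymetrix array. In the IFN-gamma experiment the arrays held JAK2 mutant cells with IFN-gamma (100 ng/ml, 6 hours), unstimulated JAK2 mutant cells, wild-type (WT) cells with IFN-gamma, and unstimulated WT cells (WT replicate 1). In the TNF-alpha experiment they held TNFRSF1A mutant cells with TNF-alpha (10 ng/ml, 6 hours), unstimulated TNFRSF1A mutant cells, WT cells with TNF-alpha, and unstimulated WT cells (WT replicate 2). JAK2 is a kinase of the IFN-gamma receptor and TNFRSF1A is the main receptor for TNF-alpha; the labels call the mutants gene-trap cells that lack the gene's expression and do not say whether each is 1 clone. The unstimulated WT condition had 2 arrays and the other 6 conditions had 1 each, so a difference between conditions is a log2 difference between 2 arrays with no replicate check and no p-value, and the number of arrays limits its precision. A gene was called raised or lowered at 2-fold, a log2 difference of 1. The SD over the 11529 genes between the 2 WT arrays, 0.38, is used as the spread of a difference. Those arrays belong to different experiments. Within an experiment the SD over genes of the WT response was smaller, 0.22 with IFN-gamma and 0.20 with TNF-alpha. A response within the spread can therefore still rank high among all genes. Each array carries 23 background probe sets, whose upper quartile ran from 5.76 to 6.04 (log2) over the arrays; a value under it is said to lie in the background range, and a difference that starts or ends there is given as a lower bound.

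The labels could be checked only in part. The brightest TNFRSF1A probe set was at -2.79 in the unstimulated TNFRSF1A mutant against its WT control but in neither mutant array in the background range, and the other 3 TNFRSF1A probe sets were at or below -0.86, -0.70 and -0.35. The 3 JAK2 probe sets lay in the background range on both JAK2 mutant arrays. They were dim in WT replicate 1 as well, at 77.5, 90.1 and 62.8. Their differences are therefore known only to be at -0.41, -0.63 and -0.11 or lower. Of 9 measured myeloid and progenitor markers, 7 were above the background range on all 8 arrays, among them PTPRC, KIT and CD34. SPI1 was in that range on all 8. The summed intensity of the 9 ran from 8633 to 17412. It was highest in WT with TNF-alpha, against 12194 in WT replicate 2. Markers of other cell types were divided. Above the background range on all 8 arrays were HBB, of 3 erythroid markers, and ITGA2B and GP9, of 5 megakaryocyte markers. So was KRT18, of 6 epithelial and fibroblast markers. In that range on all 8 were KLF1, ITGB3, PPBP, EPCAM, CDH1, COL1A1 and COL1A2 of these lists. Of 5 monocyte and macrophage markers, CSF1R, CD68 and LYZ were above the background range on all 8 arrays and CD14 and FCGR3A in it on all 8. Of 5 T and NK cell markers, CD3D and NCAM1 were above it and CD3E, CD3G and CD2 in it on all 8, and of 4 B cell markers CD79A and PAX5 were above it and MS4A1 in it. CD3D was at -1.17 in the unstimulated TNFRSF1A mutant against WT replicate 2. Among the myeloid and progenitor markers, MS4A3 was past 2-fold lower in the unstimulated JAK2 mutant than in WT replicate 1. CEBPA was past 2-fold higher in the unstimulated TNFRSF1A mutant than in WT replicate 2, and GATA2 in WT replicate 2 than in replicate 1. In these comparisons 1.91%, 0.373% and 0.954% of all genes passed in the same direction. The part of such differences in the results below was not tested. Fewer cells expressing a gene and less RNA per cell cannot be told apart in these pools of cells.

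TRAIL and the FAS ligand trigger apoptosis by clustering death receptors at the cell surface. The receptors recruit the adaptor FADD and procaspase-8, which cleaves the executioner caspases, while the CFLAR protein c-FLIP resembles caspase-8 without its catalytic activity and controls its activation in the same complex. Caspase-1 and caspase-4 belong to the inflammatory branch: they cleave gasdermin D, caspase-1 matures interleukin-1 beta and interleukin-18, and caspase-4 senses cytosolic lipopolysaccharide. In many human cells TNFSF10, FAS and CASP1 are inducible by interferons, and CFLAR and FAS are known targets of NF-kappaB. In the RefSeq gene order, CFLAR, CASP10 and CASP8 lie next to one another on chromosome 2, and CASP4, CASP5, CASP1 and CARD16 on chromosome 11.

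**Figure D1:**
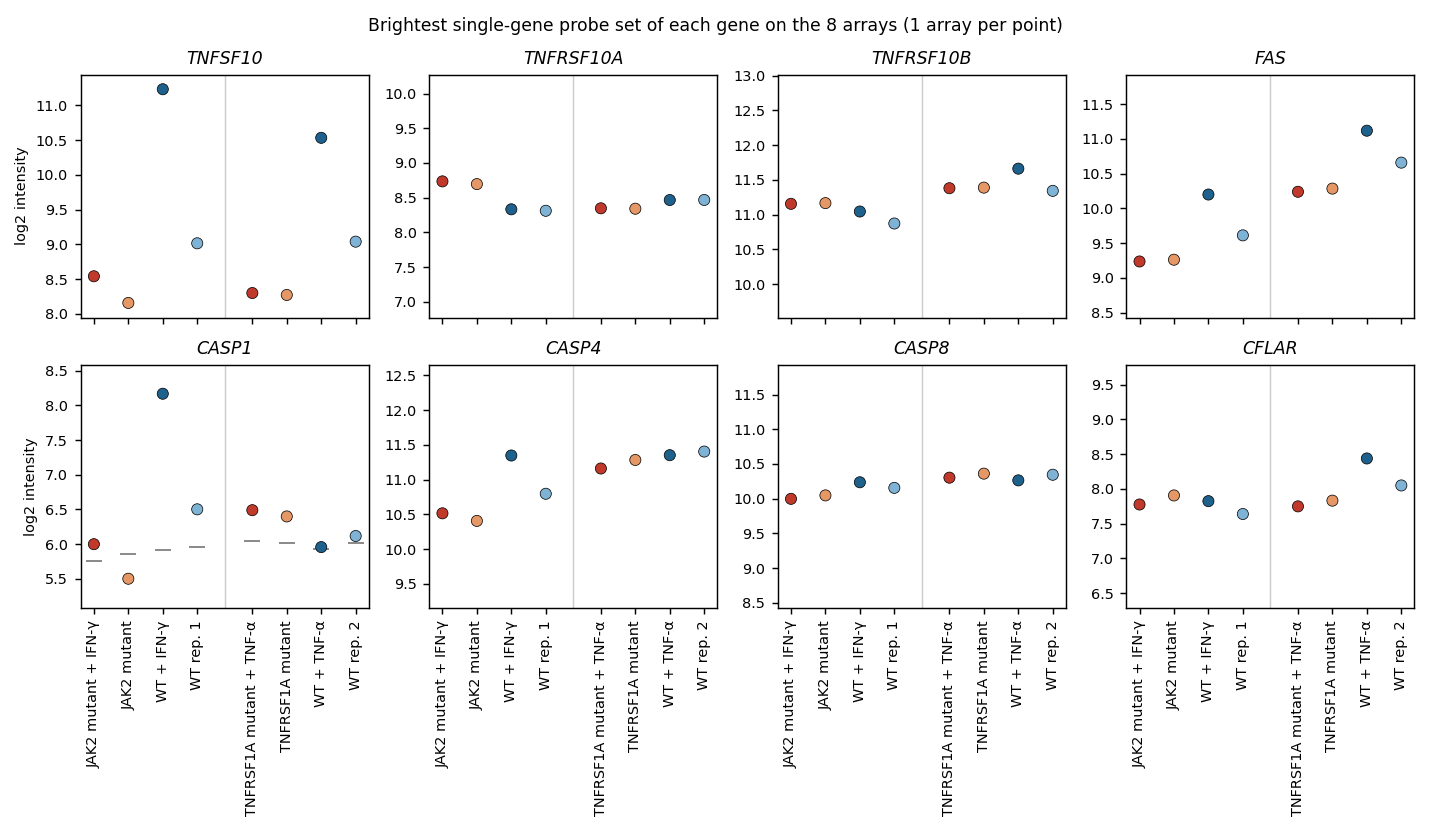
Log2 intensity of the brightest probe set of each of the 8 genes on the 8 arrays, 1 point per array, with the IFN-gamma experiment left and the TNF-alpha experiment right of the grey line; every panel spans the same number of log2 units, and short grey dashes, seen under CASP1, mark the upper end of the background range. TNFSF10 stands highest in WT with either cytokine, CASP1 in WT with IFN-gamma only, and FAS lies higher on each array of the TNF-alpha experiment than on any array of the IFN-gamma experiment.

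TNFSF10, the TRAIL gene, was raised past 2-fold by both cytokines in WT cells and by neither in the matching mutant. Its brightest probe set read 2409 in WT with IFN-gamma, against 518 in WT replicate 1, and 1483 in WT with TNF-alpha, against 526 in WT replicate 2. The other arrays gave 373 in the JAK2 mutant with IFN-gamma, against 286 in the unstimulated JAK2 mutant, and 315 in the TNFRSF1A mutant with TNF-alpha, against 309 in the unstimulated TNFRSF1A mutant. All 4 mutant arrays therefore lay below both unstimulated WT arrays, which differed by only 0.02, and both stimulated WT arrays lay above them.

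The rise with IFN-gamma in WT was 2.22 on the log2 scale, or 4.65-fold, which is 5.87 times the spread and ranked 15 of 11529 genes. Against WT replicate 2 it was 2.19. The rise with TNF-alpha was 1.49, or 2.82-fold, which is 3.96 times the spread and ranked 17, and it was 1.52 against WT replicate 1. The 3 probe sets gave 2.12 to 2.22 with IFN-gamma and 1.33 to 1.5 with TNF-alpha, all past 2-fold. Of the single-gene probe sets with a log2 value of at least 6 on some array, 0.59% and 0.279% were raised. In the JAK2 mutant the response to IFN-gamma was 0.38 (0.34 to 0.52 over the probe sets), a difference of -1.83 from the response of WT. Though short of 2-fold, the response of 0.38 ranked 108 of 11529 genes in that mutant. In intensity units the increase in the mutant came to 4.6% of that in WT by the brightest probe set, and to 4.54% and 6.5% by the others. The mutant started from a lower intensity, 286 against 518 by the brightest probe set, so these shares do not compare fold changes. In the TNFRSF1A mutant the response to TNF-alpha was 0.03 (-0.03 to 0.09), a difference of -1.47 from that of WT, and the increase by the brightest probe set was 0.63% of that in WT. The SD over all genes of such a difference of responses was 0.24 in the IFN-gamma experiment and 0.22 in the TNF-alpha experiment; the difference itself was not tested. A limma fit of all 7 conditions was also made, whose 1 residual degree of freedom comes from the WT pair. In it, every comparison with unstimulated WT used the mean of the 2 WT arrays, not the control of the same experiment. Its p-values therefore rest on a difference between experiments, and the matching of arrays within an experiment is ignored. Set against that mean, TNFSF10 rose by 2.21 in the IFN-gamma comparison, while its TNF-alpha rise came to 1.51. The fit called neither rise, but it cannot decide whether they exceed the spread within an experiment.

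The promoter windows in RefSeq (GRCh38.p14, 250 bases before to 50 after the gene's start) are shown for TNFSF10, which rose with both cytokines, for CASP8, whose brightest probe set reached 2-fold with neither, and for CFLAR, whose probe sets stood higher with TNF-alpha. They were searched on both strands for the core of the interferon-stimulated response element (GAAA repeated after any 2 bases) and for the NF-kappaB consensus site, and capitals mark the matches, none of which overlap.
TNFSF10 (chr3:172523381-172523680, minus strand): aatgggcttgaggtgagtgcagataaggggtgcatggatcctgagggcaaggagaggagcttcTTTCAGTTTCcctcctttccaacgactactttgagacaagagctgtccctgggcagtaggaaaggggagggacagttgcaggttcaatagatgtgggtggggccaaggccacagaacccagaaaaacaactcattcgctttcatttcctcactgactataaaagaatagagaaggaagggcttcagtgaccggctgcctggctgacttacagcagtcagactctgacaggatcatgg
CASP8 (chr2:201233213-201233512, plus strand): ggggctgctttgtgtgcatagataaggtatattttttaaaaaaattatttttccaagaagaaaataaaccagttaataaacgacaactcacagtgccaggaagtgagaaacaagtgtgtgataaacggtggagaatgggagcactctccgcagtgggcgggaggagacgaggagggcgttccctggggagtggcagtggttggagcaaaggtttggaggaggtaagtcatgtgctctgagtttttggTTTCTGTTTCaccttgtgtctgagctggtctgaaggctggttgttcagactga
CFLAR (chr2:201118466-201118765, plus strand): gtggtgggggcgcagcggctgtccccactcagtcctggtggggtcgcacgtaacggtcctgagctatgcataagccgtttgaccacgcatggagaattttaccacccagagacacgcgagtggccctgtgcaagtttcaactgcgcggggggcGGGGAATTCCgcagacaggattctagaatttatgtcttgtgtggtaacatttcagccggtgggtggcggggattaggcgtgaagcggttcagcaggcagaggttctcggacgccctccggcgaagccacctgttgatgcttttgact

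The TNFSF10 window holds 1 match to the interferon-stimulated response element core, on the opposite strand from base -187 to base -178, and none to the NF-kappaB consensus. The CASP8 window holds a response element core on the opposite strand from -3 to 7, and the CFLAR window holds an NF-kappaB match from -97 to -88. Windows for FAS and CASP4 were searched as well, so that 5 of the 8 genes had one, and neither holds a match to either motif. Of all 27305 windows of this length, 3.65% hold the response element core and 10.8% the NF-kappaB consensus. A match is a string of letters and does not show binding; here one was present in CASP8, which did not reach 2-fold by its brightest probe set, as well as in TNFSF10, which did.

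Neither TRAIL receptor followed its ligand. TNFRSF10A, measured by 1 probe set, had 426 in the JAK2 mutant with IFN-gamma and 415 without, against 323 in WT with IFN-gamma and 318 for WT replicate 1. In the TNF-alpha experiment it had 326 in the TNFRSF1A mutant with TNF-alpha and 324 without, against 354 in WT with TNF-alpha and 354 in WT replicate 2. The 2 JAK2 mutant arrays were the highest of the 8, and the 4 responses to a cytokine lay between 0.00 and 0.04. The unstimulated JAK2 mutant stood 0.38 above WT replicate 1, which equals the spread, and 0.23 above WT replicate 2.

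The brightest TNFRSF10B probe set had 2281 in the JAK2 mutant with IFN-gamma and 2298 without, against 2113 in WT with IFN-gamma and 1874 for WT replicate 1. It had 2666 in the TNFRSF1A mutant with TNF-alpha and 2682 without, against 3240 in WT with TNF-alpha and 2596 in WT replicate 2. WT with TNF-alpha was the highest array, 0.32 above its control, which is within the spread but ranked 503 of 11529 genes. The 2 dimmer probe sets had 0.31 and -0.22. Against WT replicate 1 the value with TNF-alpha was 0.79, because the WT arrays themselves differed by 0.47. TNFRSF10D, the gene of a TRAIL receptor with a truncated death domain, had responses of 0.13 to IFN-gamma and 0.35 to TNF-alpha in WT, and the decoy receptor genes TNFRSF10C and TNFRSF11B were in the background range on every array.

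FAS differed more between the unstimulated WT arrays than with either cytokine against its own control. The brightest probe set had 1175 in WT with IFN-gamma, against 782 in WT replicate 1, and 2222 in WT with TNF-alpha, against 1616 in WT replicate 2. WT replicate 2 thus stood 1.05 above WT replicate 1 by this probe set and 1.39 by the other, past 2-fold in both. The response to IFN-gamma was 0.59 by both and that to TNF-alpha was 0.46 and 0.33. By the brightest probe set these responses ranked 159 and 226 of 11529 genes. FAS was the only 1 of the 8 genes past 2-fold between the WT arrays, where 0.954% of all genes were higher and 1.03% lower in replicate 2. The JAK2 mutant had 603 with IFN-gamma and 613 without, a response of -0.03. The TNFRSF1A mutant had 1208 with TNF-alpha and 1247 without, a response of -0.05. Each unstimulated mutant lay below the WT control of its own experiment, at -0.35 for JAK2 and -0.37 for TNFRSF1A. The choice of WT control decided these values. Set against WT replicate 2, the IFN-gamma response turned to -0.46 and the JAK2 mutant passed 2-fold at -1.40, where 3.65% of all genes were lower. Set against WT replicate 1, the TNFRSF1A mutant turned to 0.67 and TNF-alpha in WT passed 2-fold at 1.51, where 1.4% of all genes were raised.

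**Figure D2:**
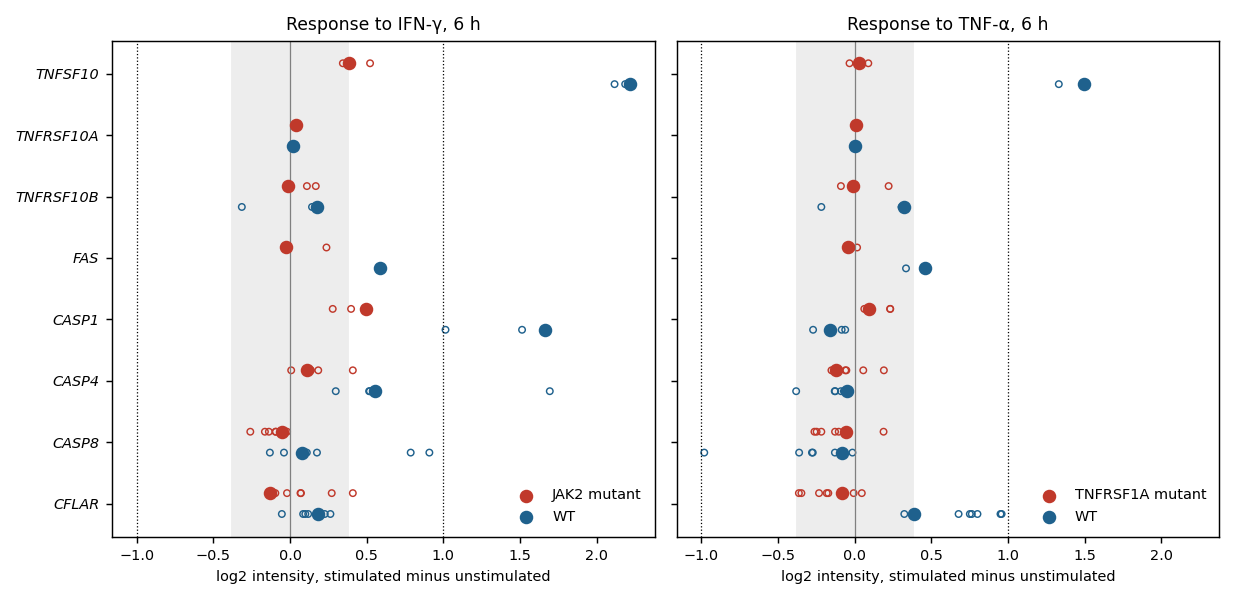
Log2 difference between stimulated and unstimulated cells for each of the 8 genes, in the mutant (red, upper row of each pair) and in WT (blue, lower row); filled points are the brightest probe set, open points the other single-gene probe sets with a log2 value of 6 on some array, the grey band is the spread of 0.38 and dotted lines mark 2-fold. Among the filled points, TNFSF10 and CASP1 in WT lie beyond 2-fold with IFN-gamma, and only TNFSF10 does with TNF-alpha. An open CASP4 point in WT with IFN-gamma is drawn at 1.69, but its control lay in the background range.

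CASP1, the gene of the protease that matures interleukin-1 beta, was raised by IFN-gamma in WT and not by TNF-alpha. Its brightest single-gene probe set had 287 in WT with IFN-gamma, against 90.7 in WT replicate 1, a rise of 1.66 or 3.17-fold that is 4.40 times the spread and ranked 27 of 11529. In the TNF-alpha experiment it had 62.2 in WT with TNF-alpha, against 69.5 in WT replicate 2, a value of -0.16. The JAK2 mutant had 64 with IFN-gamma, against 45.3 without, which lay in the background range, so its response is known only to be at least 0.14. The TNFRSF1A mutant had 89.9 with TNF-alpha, against 84.4 without. WT with IFN-gamma was thus the only array above an intensity of 100.

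All 4 CASP1 probe sets that passed the level of 6 reached 2-fold with IFN-gamma, with 1.68, 1.66, 1.51 and 1.01, of which the last is at least 0.85 because its control value lay in the background range. That dimmest one passed the level by the WT array with IFN-gamma alone, and the other 5 stayed in the background range on all 8 arrays. The probe set shared with CARD16, a caspase-1 inhibitor gene, had 681 in WT with IFN-gamma, against 357 in WT replicate 1, a value of 0.93, and 0.17 in the JAK2 mutant; a probe set of CARD16 alone had 0.70 in WT. The limma fit, which used the mean of the 2 WT arrays as control, put the CASP1 rise with IFN-gamma at 1.86 and did not call it.

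CASP4, which lies beside CASP1 with CASP5 between them, had smaller values. Its brightest probe set had 2604 in WT with IFN-gamma, against 1777 in WT replicate 1, and 2612 in WT with TNF-alpha, against 2709 in WT replicate 2. These are 0.55, which ranked 179 of 11529 genes, and -0.05. The 5 bright probe sets gave 0.30 to 0.56 with IFN-gamma, and a dim one gave at least 1.16. WT replicate 2, at 0.61 above replicate 1, was as high as WT with IFN-gamma, and against it the IFN-gamma value was -0.06. The JAK2 mutant had 1463 with IFN-gamma and 1356 without, the lowest of the 8 arrays; without IFN-gamma it was at -0.39 against WT replicate 1 and at -0.999 against replicate 2. The TNFRSF1A mutant had 2287 with TNF-alpha and 2490 without. CASP5, the closest relative of CASP4 among the inflammatory caspases, was in the background range on every array.

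The CASP8 probe sets differed from one another. The brightest had 1023 in the JAK2 mutant with IFN-gamma and 1058 without, against 1207 in WT with IFN-gamma and 1141 for WT replicate 1, and it had 1263 in the TNFRSF1A mutant with TNF-alpha and 1315 without, against 1230 in WT with TNF-alpha and 1301 in WT replicate 2. Its 4 responses to a cytokine lay between -0.08 and 0.08, and it spanned only 0.36 over the 8 arrays. The next 3 in brightness spanned 0.28, 0.44 and 0.50, and a dim one was above the background range on 1 array. A further pair of probe sets, both annotated to the same transcript record, spanned 2.66 and 2.63. The brighter of that pair had 373 in WT replicate 2, against 58.8 in WT replicate 1, which lay in the background range, so that replicate 2 was higher by at least 2.58, and by at least 2.30 by the other member.

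The same pair stood at 126 and 109 in the JAK2 mutant with IFN-gamma and at 141 and 131 without, at least 1.17 and 1.07 above WT replicate 1 but at -1.40 and -1.24 against WT replicate 2. In WT with IFN-gamma the pair had 101.4 and 93.3, at least 0.70 and 0.58 above WT replicate 1. In WT with TNF-alpha it had 308 and 254, at -0.27 and -0.28 against WT replicate 2. In the TNFRSF1A mutant it had 198 and 136 with TNF-alpha and 174 and 158 without, of which the unstimulated values were -1.10 and -0.96 against WT replicate 2. Shares were taken over the single-gene probe sets with a log2 value of at least 6 on some array. By 2-fold, 0.182% of them were higher and 1.64% lower in the JAK2 mutant than in WT replicate 1. In the TNFRSF1A mutant 0.569% were lower than in WT replicate 2. Among all single-gene probe sets with a log2 value of 6 on some array, 1.43% were 2-fold higher in WT replicate 2 than in replicate 1. What part of the CASP8 transcripts the pair reads was not analysed here.

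**Figure D3:**
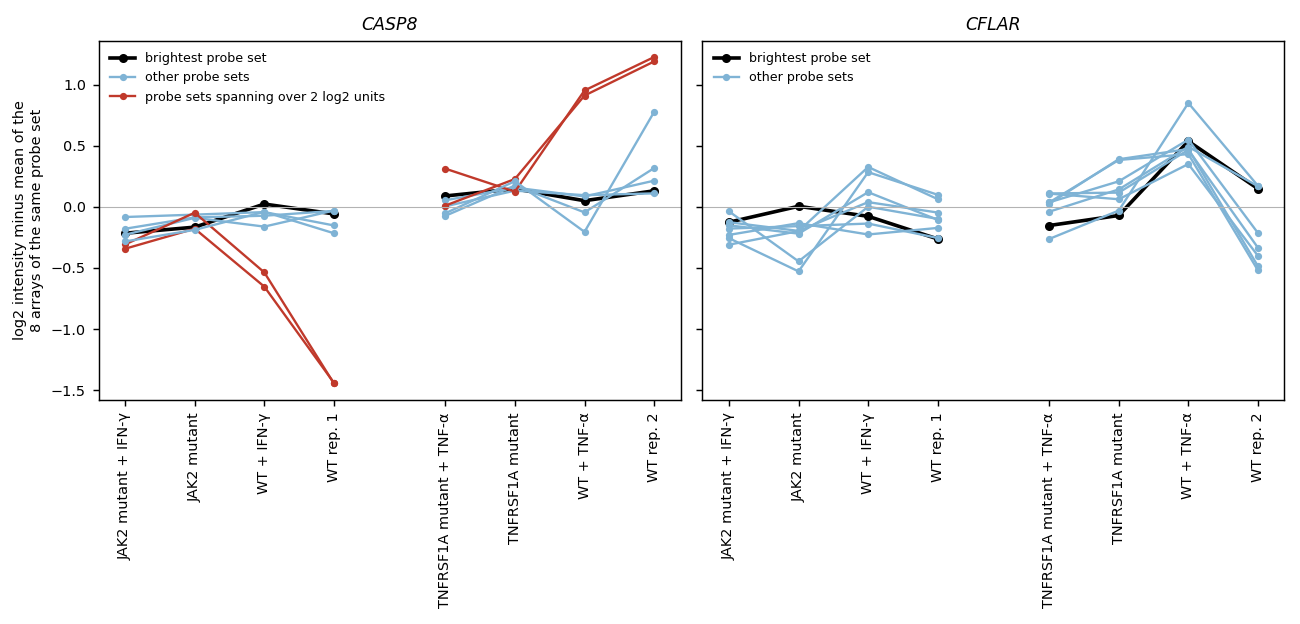
Log2 intensity of each CASP8 and CFLAR probe set that reached a log2 value of 6, on the 8 arrays, minus the mean of that probe set over the arrays; black is the brightest probe set and red marks the CASP8 pair that spans over 2 log2 units. The red lines are lowest in WT replicate 1 and highest in WT replicate 2 while the black line stays nearly flat, and all CFLAR lines stand higher in WT with TNF-alpha than in WT replicate 2.

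CFLAR, the inhibitor of caspase-8, did not reach 2-fold with either cytokine, but its probe sets shared a direction with TNF-alpha. The brightest had 347 in WT with TNF-alpha, against 265 in WT replicate 2, a difference of 0.39 that is close to the spread. That difference ranked 317 of 11529 genes. All 8 probe sets above the level of 6 were higher in WT with TNF-alpha, by 0.32 to 0.96 with a median of 0.76, whereas in the TNFRSF1A mutant 1 of the 8 was higher with TNF-alpha and the median was -0.18. With WT replicate 1 as control all 8 were again higher in WT with TNF-alpha, by 0.29 to 1.104, so that 1 of them passed 2-fold. Against that control 1.4% of all genes were raised 2-fold by their brightest probe sets. Probe sets of a gene share transcripts and arrays and are not replicates. The brightest had 215 in the TNFRSF1A mutant with TNF-alpha and 227 without. Without a cytokine it was at -0.22 in that mutant against WT replicate 2, whereas 5 of the 8 probe sets were above 0 there, with a median of 0.44. In the IFN-gamma experiment it had 219 in the JAK2 mutant with IFN-gamma and 240 without, against 226 in WT with IFN-gamma and 199 for WT replicate 1, which gave 0.19 in WT and -0.13 in the mutant. The median over the 8 probe sets was 0.15 with IFN-gamma in WT.

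Counted over the 8 genes, 2 were raised by IFN-gamma in WT (TNFSF10 and CASP1) and 0 lowered, where 0.607% of all genes were raised and 0% lowered. The median of the 8 was 0.37, against -0.02 over all genes, and all 8 values were above 0. With WT replicate 2 as control the same 2 were called, where 1.66% of all genes were raised, but the other 6 values lay below 0 and the median was -0.12, against 0.02 over all genes. By TNF-alpha in WT 1 was raised (TNFSF10) and 0 lowered, where 0.312% of all genes were raised and 0.00867% lowered, and the median was 0.16 against 0.01 over all genes; with WT replicate 1 as control it was 0.67 against -0.03. In the JAK2 mutant with IFN-gamma 0 of the 8 passed 2-fold, as did 0% of all genes, and the median was 0.01. In the TNFRSF1A mutant with TNF-alpha 0 of the 8 and 0% of all genes passed, and the median was -0.03. The genes were picked with these responses already known, so that the counts describe them and do not set them apart from other genes. The limma fit called 0 of the 8 at an adjusted p of 0.05 in any of 6 comparisons, where it called 0.00867% of all genes with either cytokine in WT, 0% in both mutant responses, 0.165% in the unstimulated JAK2 mutant and 0.0434% in the unstimulated TNFRSF1A mutant. At an unadjusted 0.05 limma took TNFSF10 and CASP1 with IFN-gamma in WT, where it took 1.28% of all genes, and TNFSF10 with TNF-alpha in WT, where it took 0.98%. In the mutant responses it took 0 of the 8, and 0.0954% of all genes in the JAK2 mutant and 0.00867% in the TNFRSF1A mutant. Between unstimulated cells it took TNFSF10 and CASP1 in the JAK2 mutant, where it took 6.25% of all genes, and TNFSF10 in the TNFRSF1A mutant, where it took 1.87%.

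Without a cytokine, TNFSF10 was lower in both mutants than in either WT array. It was at -0.86 in the JAK2 mutant against WT replicate 1 (-0.88 against replicate 2) and at -0.77 in the TNFRSF1A mutant against WT replicate 2 (-0.74 against replicate 1), beyond the spread in both and short of 2-fold. The 3 probe sets gave -1.01 to -0.74 in the JAK2 mutant, 1 of them past 2-fold, and -0.99 to -0.77 in the TNFRSF1A mutant. CASP1 had -0.999 in the JAK2 mutant, just short of 2-fold, and is known only to be at -0.64 or lower there, since the mutant value lay in the background range. Against WT replicate 2 it had -0.62 before any such bound. Of the dimmer CASP1 probe sets, 2 are known only to be at -0.14 and -0.16 or lower against WT replicate 1. The probe set shared with CARD16 went the other way, at 0.49, and a probe set of CARD16 alone had 0.68. In the TNFRSF1A mutant CASP1 had 0.28, and -0.10 against replicate 1. In the JAK2 mutant 0 of the 8 genes were called, with a median of -0.23 (-0.46 against replicate 2), where 1.91% of all genes were lower and 0.226% higher. In the TNFRSF1A mutant 0 of the 8 were called, with a median of -0.12 (0.20 against replicate 1), where 0.607% were lower and 0.373% higher. The mutants' values share their WT control with the WT responses above, so a low or high control moves both. The ratio of the 3' to the 5' actin probe set rises as RNA degrades. It was 6.47 and 5.74 in the JAK2 mutant with and without IFN-gamma, against 4.81 and 4.41 in WT with and without it. In the TNFRSF1A mutant it was 5.53 and 4.51 with and without TNF-alpha, against 4.81 and 3.27 in WT. The same ratio for GAPDH differed less. In the same order it was 1.25 and 1.27 in the JAK2 mutant, against 1.20 and 1.21 in WT. For the TNFRSF1A mutant it was 1.15 and 1.14, against 1.14 and 1.09 in WT. The part of RNA quality in these values was not tested.

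**Figure D4:**
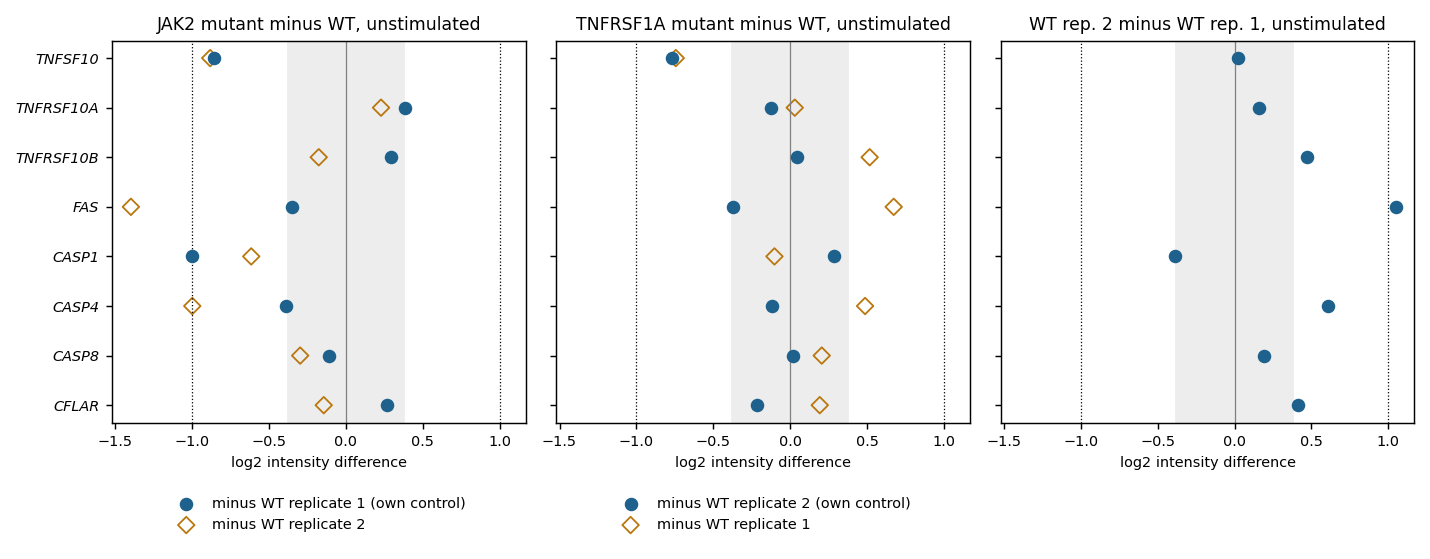
Log2 difference between unstimulated cells for the brightest probe set of each of the 8 genes; circles use the WT array of the same experiment and open diamonds the other WT array, the grey band is the spread of 0.38 and dotted lines mark 2-fold. The TNFSF10 circles and diamonds nearly coincide, at -0.86 and -0.88 in the JAK2 mutant, while those of FAS lie 1.05 apart, which is the difference between the WT arrays shown on the right.

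Arranged by level, the neighbours that stand clear of the spread are few. TNFSF10 ran from WT with IFN-gamma to WT with TNF-alpha, 0.70 lower, and then, 1.49 lower, to the unstimulated WT pair; the 4 mutant arrays followed, the first of them 0.47 lower, and differed by at most 0.24 between neighbours. For CASP1, WT with IFN-gamma stood 1.66 above the next array, and the unstimulated JAK2 mutant, the lowest and in the background range, lay at least 0.10 under the next, which is within the spread. For FAS, gaps above the spread were those between WT with TNF-alpha and WT replicate 2 (0.46) and between WT with IFN-gamma and WT replicate 1 (0.59). For CFLAR the only such gap was the 0.39 between WT with TNF-alpha and WT replicate 2, and for TNFRSF10A, TNFRSF10B, CASP4 and CASP8 there was no gap above 0.38 between neighbours.

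Among the 1473 genes that spanned at least 1 on the log2 scale over the 8 arrays, the closest to TNFSF10 by Pearson's r were NOD2 (r = 0.99), CXCL10 (0.95) and GBP4 (0.95). The closest to FAS were CDKN1A (0.99), MB21D2 (0.98) and ELL2 (0.98), and the closest to CASP1 were TMEM51 (0.97), MRAS (0.96) and IRF7 (0.96). These are descriptions over 8 arrays that share controls and a normalization. MRAS was above the background range only in WT with IFN-gamma, and CXCL10 only in WT with either cytokine. GBP4 lay in that range in the unstimulated JAK2 mutant and on both TNFRSF1A mutant arrays. The r values of these genes therefore rest in part on values in the background range. Between members, r was 0.92 for FAS with CASP4 and 0.92 for CASP4 with CASP8, but 0.17 for FAS with CASP1.

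The other genes of the death pathways mostly stayed within the spread in WT cells. Of 54 listed genes, 48 had a value and 41 passed the level of 6. With IFN-gamma 0 of the 41 passed 2-fold, where 0.607% of all genes were raised and 0% lowered, and their median was -0.02. CASP10, a relative of caspase-8, came nearest, at 0.98 by its brightest probe set and 0.73 by the next, with 0.04 in the JAK2 mutant. BAK1, which permeabilises the mitochondrial outer membrane, had 0.72 by its brightest probe set. Its other probe sets above the background range had 0.70, 0.48 and 0.05. MLKL, the effector of necroptosis, had 0.50. Against WT replicate 2 the IFN-gamma values were 0.23 for CASP10, 1.05 for BAK1 and 1.747 for MLKL. Like FAS, these differed between the WT arrays: WT replicate 2 minus replicate 1 was 0.76 for CASP10 and -1.24 for MLKL.

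With TNF-alpha 1 of the 41 rose, where 0.312% of all genes were raised. It was the interleukin-1 beta gene IL1B, by at least 1.40, since its control was in the background range. The median of the 41 was 0.00. BIRC2, which ubiquitinates RIPK1 in the TNF receptor complex, had 0.39. The adaptor gene FADD responded to IFN-gamma with -0.11 and to TNF-alpha with -0.06, and GSDMD, the gene of gasdermin D, had 0.17 and 0.05. In both mutant responses 0 of the 41 passed 2-fold, as did 0% of all genes. Between unstimulated cells, IL18 was lower in the JAK2 mutant, by -1.24, the only 1 of the 41 past 2-fold there. Of all genes 1.91% were lower and 0.226% higher in that mutant. In the TNFRSF1A mutant 2 of the 41 were lower, where 0.607% of all genes were. They were TNFRSF1A itself, and the death receptor gene TNFRSF25, at -1.34 or lower, although a second TNFRSF25 probe set had 0.12.

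**Figure D5:**
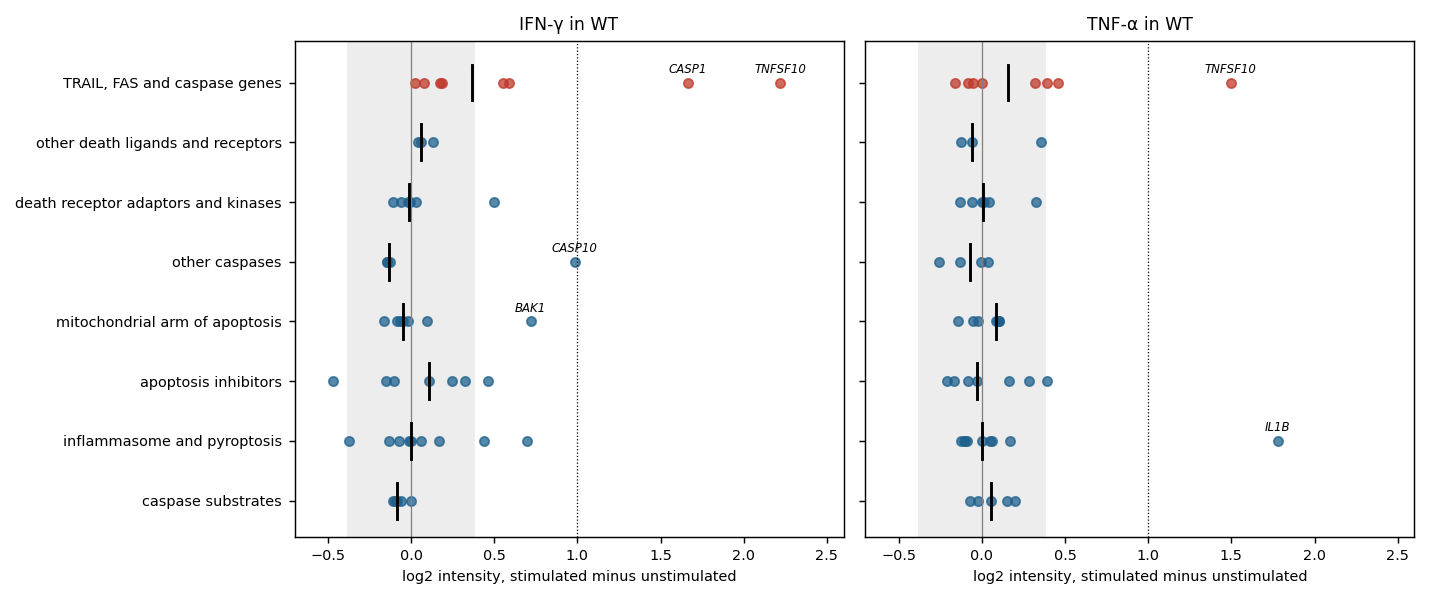
Log2 difference between stimulated and unstimulated WT cells for the 8 TRAIL, FAS and caspase genes (red) and for 7 lists of other death pathway genes (blue), 1 point per gene by its brightest probe set, with black bars for list medians, the spread as a grey band and 2-fold as a dotted line. Genes with a value of at least 0.7 are named except CARD16, at 0.70 with IFN-gamma; beyond 2-fold lie TNFSF10 and CASP1 with IFN-gamma, and TNFSF10 and IL1B with TNF-alpha, where IL1B, drawn at 1.78, is at least 1.40.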

How the data were processed

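Total RNA of 8 KBM7 samples was amplified, labelled and read on 1 Affymetrix array each. Genotype, cytokine and matching control follow the labels. What the authors deposited is 1 normalized intensity per probe set and array; the submitters' processing notes name RMA and Affymetrix Expression Console 1.1. They are on a linear scale by their array medians of 63.9 to 66.9 and maxima of 31093 to 32905; the step back from RMA's log2 values is not given in the sources used here. RMA makes the arrays' distributions equal, so a shift of most genes would not be seen. Whether the 2 WT samples came from separate cultures is not stated.

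Probe sets were named from the platform annotation, with symbols updated through the RefSeq gene table. Log2 was taken without a pseudocount, since the lowest intensity was 6.72. Each gene was represented by its brightest single-gene probe set, and genes with a highest log2 value under 6 were left out. Differences are between 2 arrays, called at 2-fold. Alternatives were the other WT array as control, a 1.5-fold threshold, no level filter, the mean of a gene's probe sets, loess correction (span 0.3) and a limma 3.58.1 fit with 1 residual degree of freedom and Benjamini-Hochberg adjustment; the bounds at the background range were chosen after seeing the data. The calculation was tested on simulated data. The 8 genes were given by name and the pathway lists, markers and rules were chosen with earlier results of these data known. The text names the 8 genes, the targeted genes, listed pathway genes past 2-fold with up to 2 others of each list, and the 3 genes closest to each member that spans a log2 of 1. FADD, GSDMD, TNFRSF10C, TNFRSF11B and CASP5 were added for their role. Some listed genes were not analysed here. Promoter windows came from RefSeq, and 1 further motif is not reported here. Python 3.11.15 and R 4.3.3 were used.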

Additional observations from a re-analysis of the deposited data

How the results depend on the processing

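Among the 8 genes, TNFSF10 was called with both cytokines in WT under every setting but the limma fit, and CASP1 with IFN-gamma in WT under every setting but that fit and the mean of its probe sets, where it fell under the level filter. The genes called with IFN-gamma in WT were then 0 and 1 instead of 2, and with TNF-alpha 0 by limma instead of 1. Against the other WT array TNF-alpha called 2, with FAS added, and the JAK2 mutant 1, FAS, instead of 0. At 1.5-fold IFN-gamma in WT had 3, with FAS added, which turned to -0.46 against the other WT array; the unstimulated JAK2 mutant had 2, the TNFRSF1A mutant 1 and the WT pair 2 instead of 1. The WT pair also had 2 by the mean of probe sets, with CASP8 added, and the JAK2 mutant 1, CASP1, after loess correction. Bounding values at the background range kept the counts of all comparisons.

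Over all genes the counts with the other WT array as control were 271 instead of 70 with IFN-gamma in WT, 243 instead of 37 with TNF-alpha, 755 instead of 246 in the JAK2 mutant and 196 instead of 113 in the TNFRSF1A mutant. At 1.5-fold they were 175, 135, 710 and 442 in that order, 44 and 5 instead of 0 in the JAK2 and TNFRSF1A mutants' responses, and 1289 instead of 229 in the WT pair. The mean of probe sets gave 156 in the JAK2 mutant, 61 in the TNFRSF1A mutant and 116 in the WT pair. The limma fit called 1 gene with each cytokine in WT, 19 in the JAK2 mutant and 5 in the TNFRSF1A mutant; in the mutants' responses it called 0 at adjusted p and 11 and 1 at an unadjusted 0.05.

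Of the members' single values, 20 of 32 moved by more than the spread with the other WT array, 5 of 49 with the mean of probe sets, 4 of 48 in the limma fit and 0 of 56 after loess correction; no called value changed sign. With the other WT array every value of a gene moved by the size of its difference between the WT arrays, so these 20 are not separate results. The 4 in the limma fit are all of FAS, set there against the mean of the 2 WT arrays. The cause of the 5 with the mean of probe sets was not tested. Precision is limited by 1 array per condition, and signal over background limits CASP1 and the dim CASP4 and CASP8 probe sets. No paired test was possible because the stimulated and mutant conditions had 1 array each, although each main difference uses the control of its own experiment.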
